A study of Mus musculus with 2 samples.

Results

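The fibroblasts of the gastroesophageal squamocolumnar junction (GE-SCJ) before birth are described here. They are the cells that carry the authors' label Stromal and the tag of the junction at embryonic day 15 (E15) or E19, and they number 938 (350 at E15 and 588 at E19) of 7808 cells in all and of 3442 with that label. They were set against the cells with the same label from the esophagus (347 at E15, 739 at E19) and from the stomach (360 and 701). The animals were wild-type C57BL/6 mice with no treatment. The 3 tissues were digested with collagenase, every region and stage received its own CellPlex oligonucleotide tag, and all tags were run as 1 library, so that no barcodes could be shared between libraries. According to the sample labels 6 mice were used for E15 and 2 for E19, and the methods speak of 3 mice combined. Cells of these mice were pooled and carry no mark of the mouse, so a region at a stage is 1 sample, differences between groups have no replicate check and no test was run.

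The GE-SCJ fibroblasts held 3769477 unique molecular identifiers (UMIs) at E15 and 5719877 at E19, with a median of 9875.5 and 9080 UMIs and 3433.5 and 3265.5 genes per cell. Median depth was 10573 and 9172 UMIs for the esophagus and 9858 and 9025 for the stomach. Levels are in CPM (counts per 1000000), for which all cells of one group were added up before scaling, and ranges in parentheses are exact 95% intervals. A log2 ratio was taken after 1 UMI was added to each sum. The intervals cover counting error only, and 3 UMIs, the upper limit for a gene with none, correspond to 0.796 CPM at E15 and 0.524 CPM at E19 at the GE-SCJ.

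The tags that decide which cells belong to the junction are 15 bases long, and any 2 of the 12 tags of the pool differ in at least 7 bases. Both deposited cell lists gave the same tag in 7808 of 7808 cells. The 6 prenatal tags are shown because region and stage rest on them alone.
E15 esophagus: ATGAGGAATTCCTGC
E15 GE-SCJ: CATGCCAATAGAGCG
E15 stomach: CCGTCGTCCAAGCAT
E19 esophagus: AACGTTAATCACTCA
E19 GE-SCJ: CGCGATATGGTCGGA
E19 stomach: AAGATGAGGTCTGTG

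The label was checked against its markers. *Col1a1* and *Col3a1*, which encode fibrillar collagens, were at 3864 and 4744 CPM at E15 and at 6242 and 7412 CPM at E19, against 401 and 445 CPM in the 262 prenatal immune cells of the pool. *Dcn*, which encodes the proteoglycan decorin, was at 2071 and 2752 CPM, and *Pdgfra*, the receptor of platelet-derived growth factor that marks mesenchyme, at 207 and 239 CPM. The last 2 were at 197 and 11.9 CPM in immune cells, so that all 4 markers were well above immune cells. Cells labelled Smooth Muscle were not set beside them, so this comparison does not tell fibroblasts from smooth muscle cells. Several lists of other cell types were low, with sums of 11.1 and 12.6 CPM over 5 mesothelial genes, 9.29 and 9.97 CPM over 6 enteric neural genes, 18.8 and 12.4 CPM over 6 immune genes, 3.71 and 7.52 CPM over 5 endothelial genes and 4.78 and 5.07 CPM over 5 skeletal muscle genes. The 7 epithelial markers summed to 176 and 161 CPM, under the 374 CPM found in immune cells. Lists of contractile and perivascular cells were not low. The 4 pericyte genes summed to 403 and 421 CPM, against 29.4 CPM in immune cells, with 209 and 191 CPM for the esophagus and 629 and 455 CPM for the stomach. The 3 genes of interstitial cells of Cajal summed to 155 and 227 CPM, against 71.0 CPM in immune cells, and the 7 smooth muscle genes to 1252 and 2504 CPM, against 292 CPM. The part of such cells in the results was not tested.

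Fibroblasts of the gut wall lie beneath the epithelium and signal to it. During development the mesenchyme of the foregut carries positional information in Hox genes and other homeobox factors, and it sends WNT, BMP, FGF and retinoic acid signals that pattern the esophagus and the stomach, while hedgehog ligands of the epithelium act on the mesenchyme. R-spondins are secreted proteins that strengthen WNT signals by keeping Frizzled receptors at the cell surface. Towards birth, fibroblasts deposit collagen, elastic fibres and proteoglycans and leave the cell cycle.

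Which genes set the junction apart from both of its neighbours was asked first. At E15 the GE-SCJ fibroblasts were highest in 65 of 9593 genes with at least 100 UMIs over the 3 regions (0.678%), where highest means at least 1.5-fold above the esophagus and the stomach alike. By the same rule 331 genes (3.45%) were highest in the esophagus and 189 (1.97%) in the stomach, and 87 (0.907%) were lowest at the GE-SCJ. At E19, of 10854 genes, 100 (0.921%) were highest and 51 (0.47%) lowest at the GE-SCJ, whereas 471 (4.34%) were highest in the esophagus and 75 (0.691%) in the stomach. Only 11 of 9569 genes tested at both stages were highest at the GE-SCJ at both (0.115%), namely *Hoxa5*, *Hoxc4*, *Rspo3*, *Id4*, *Cpa6*, *Cxcl1*, *Btg2*, *Klf2*, *Nr4a1*, *Atf3* and *Junb*, and 6 were lowest at both (0.0627%), *Igfbp3*, *Tnxb*, *Tmem229a*, *Ppargc1a*, *Adcy2* and *Sptssb*. Many single calls depended on which cells were taken. Among cells at or under the median share of dissociation stress genes, 7 of the 65 genes highest at E15, 31 of the 100 highest at E19 and 1 of the 11 highest at both were called again, and within the authors' cluster 3 these were 3, 21 and 2. Both settings hold fewer cells, so that fewer genes reach 100 UMIs. In all, 65, 103 and 3 genes were called highest at low stress share, and 51, 73 and 4 in cluster 3. Most genes called there at a single stage were thus other genes. Of the 65 genes highest at E15, 61 were tested at E19 and 40 of these lay above both neighbours by any amount, against 32.6% of all genes. Of the 87 genes lowest at E15, 41 of 82 lay below both at E19, against 21.5% of all genes.

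**Figure D1:**
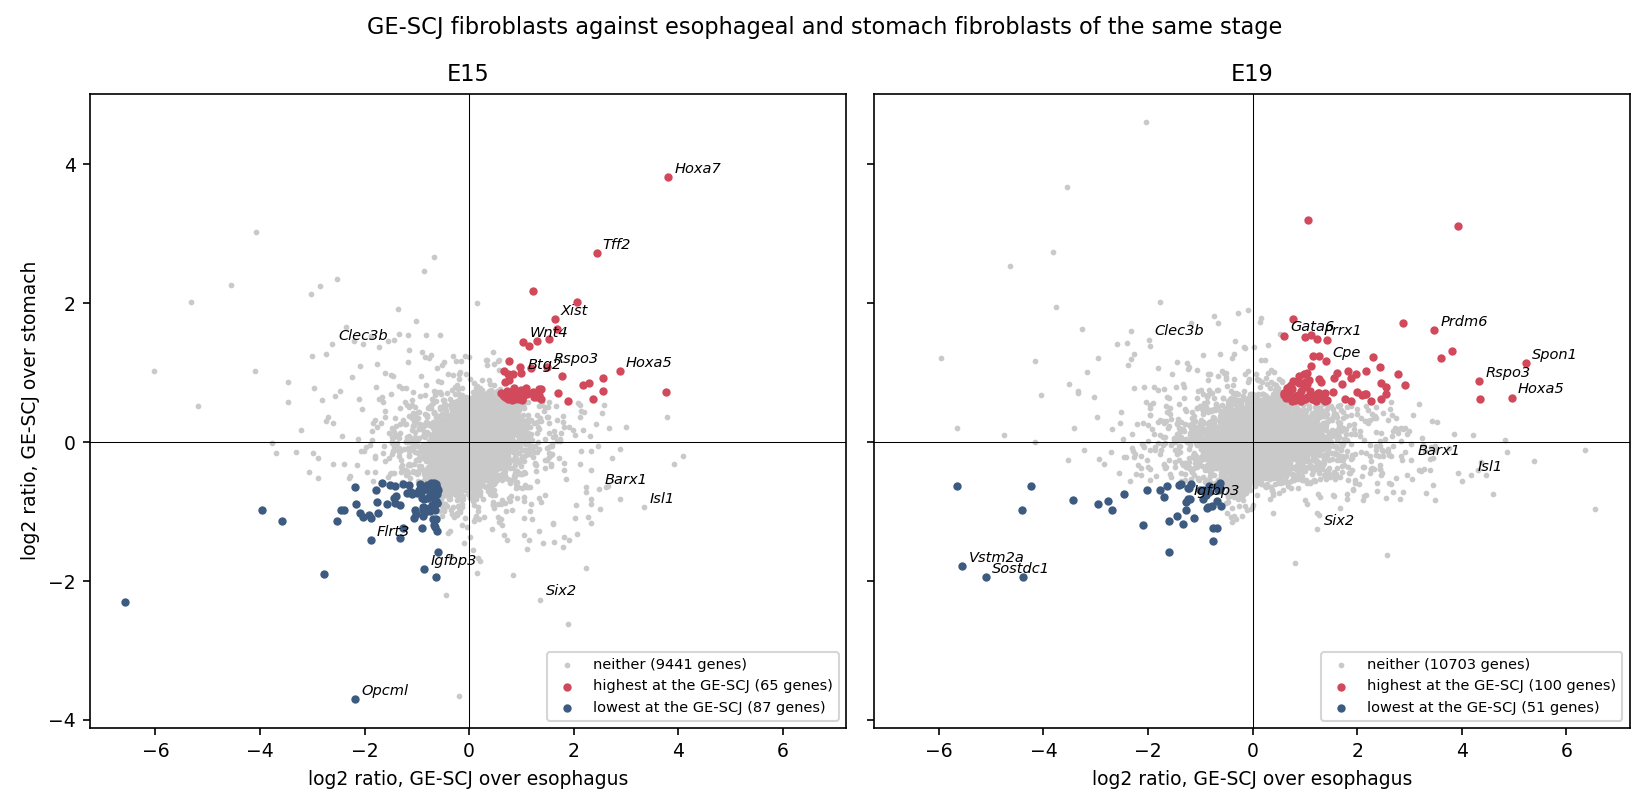
Log2 ratio of the GE-SCJ over the esophagus (horizontal axis) and over the stomach (vertical axis) for each gene with at least 100 UMIs over the 3 regions, at E15 (left) and E19 (right). The genes highest at the GE-SCJ (red, 65 and 100) sit in the upper right and those lowest there (blue, 87 and 51) in the lower left, and *Barx1* and *Isl1* lie far to the right and below the horizontal line, near the stomach and away from the esophagus.

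Several Hox genes were highest at the junction. *Hoxa5*, a homeobox factor of the foregut mesenchyme on chromosome 6 from 52201754 to 52204587 on the minus strand (GRCm38), was at 17.6 CPM in the esophagus, 131 CPM (119.8 to 143) at the GE-SCJ and 64.4 CPM in the stomach at E15. At E19 it was at 3.87 CPM in the esophagus, 124 CPM (115 to 133) at the GE-SCJ and 79.6 CPM in the stomach. The junction was highest at both stages, with log2 ratios of 2.88 (2.51 to 3.27) over the esophagus and 1.02 (0.80 to 1.248) over the stomach at E15 and 4.95 (4.41 to 5.55) over the esophagus and 0.64 (0.47 to 0.80) over the stomach at E19. With each cell thinned to 3000 UMIs, 32.0% of GE-SCJ fibroblasts had a *Hoxa5* UMI at E15 and 29.98% at E19, against 0.461% of immune cells, which had a median of 9680 UMIs before thinning.

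*Hoxa7*, the neighbour of *Hoxa5* on chromosome 6 from 52214491 to 52221854 on the minus strand, was nearly confined to the junction among these fibroblasts. At E15 it was at 2.10 CPM in the esophagus, 32.9 CPM (27.4 to 39.2) at the GE-SCJ and 2.10 CPM in the stomach, from 8, 124 and 8 UMIs, with log2 ratios of 3.81 (2.84 to 4.97) over the esophagus and 3.81 (2.84 to 4.98) over the stomach. At E19 it was at 0.287 CPM in the esophagus, 14.7 CPM (11.7 to 18.2) at the GE-SCJ and 1.36 CPM in the stomach, from 2, 84 and 9 UMIs, which fall short of the minimum of 100. Its level at the GE-SCJ fell from E15 to E19, with a log2 ratio of -1.16 (-1.57 to -0.75). After thinning, 7.78% and 3.47% of GE-SCJ fibroblasts had a UMI of it and 0 of 217 immune cells.

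*Hoxc4*, on chromosome 15 from 103018934 to 103036852 on the plus strand, was highest at both stages, at 10.2, 26.8 and 17.3 CPM in esophagus, GE-SCJ and stomach at E15 and 5.44, 23.6 and 14.7 CPM at E19. *Hoxb5* was highest at E15 (9.71, 33.7 and 17.3 CPM, log2 ratios 1.77 and 0.95) and *Hoxb6* at E19 (0.573, 14.5 and 9.38 CPM, log2 ratios 4.36 and 0.62). *Hoxb8* was at 0.525, 14.3 and 7.33 CPM at E15 and had no UMI in the esophagus at E19, where the GE-SCJ (11.5 CPM) was at least 26.8-fold higher and the stomach was at 12.6 CPM. Other listed members differed less from one or both neighbours. The log2 ratios over esophagus and stomach at E15 were -0.08 and -0.37 for *Hoxa3*, 0.31 and 0.23 for *Hoxb2*, -0.04 and 0.32 for *Hoxb3* and 0.08 and -0.28 for *Hoxb4*. At E19 they were -0.11 and -0.04, 0.25 and -0.02, -0.26 and 0.12 and 0.26 and 0.09 in the same order. *Hoxa4* separated the esophagus (11.3 CPM at E15) from the GE-SCJ (25.5 CPM) but not the GE-SCJ from the stomach (26.7 CPM). Of 22 Hox genes listed, 10 were tested at E15, of which 4 were highest and 0 lowest at the GE-SCJ, and 12 at E19, of which 3 were highest and 0 lowest. Over all genes tested, 0.678% were highest at E15 and 0.921% at E19.

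**Figure D2:**
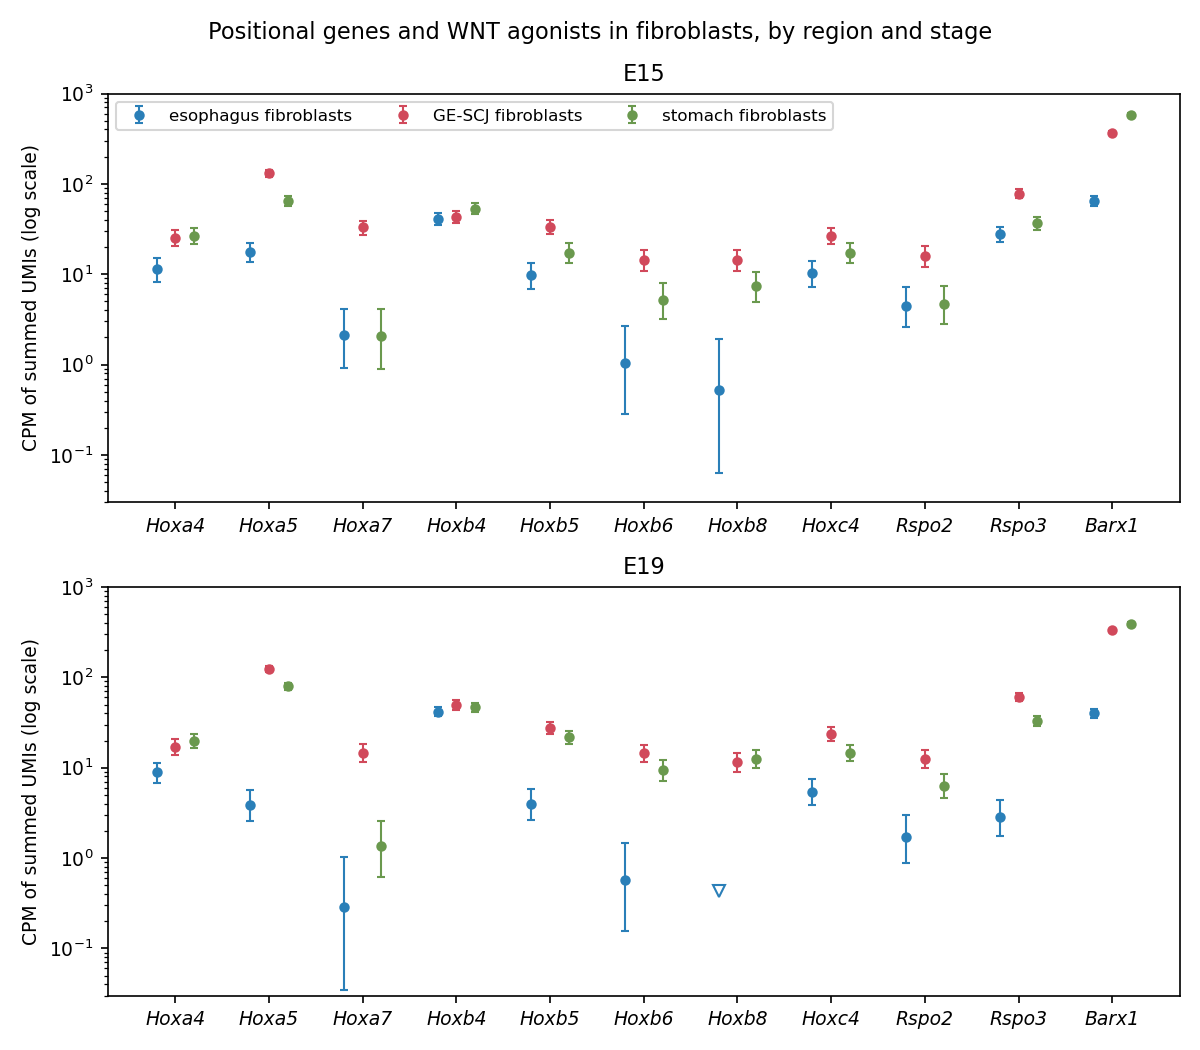
CPM of summed UMIs (log axis) with exact 95% intervals for 8 Hox genes, the WNT agonists *Rspo2* and *Rspo3* and the stomach factor *Barx1* in fibroblasts of the esophagus (blue), GE-SCJ (red) and stomach (green), at E15 (top) and E19 (bottom). The open triangle marks 0 UMIs, drawn at the level of 3 UMIs. *Hoxa7* stands at 32.9 CPM at the GE-SCJ at E15 against 2.10 CPM in the stomach, whereas the intervals of *Hoxb4* overlap between the 3 regions at E15.

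The authors' clustering placed most GE-SCJ fibroblasts in cluster 0 (251 at E15 and 380 at E19) (7 and 4 esophageal cells), and most of the others in cluster 3 (94 and 204), which has cells of all 3 regions. Most esophageal cells were in cluster 1 (204 and 678), which held 5 and 0 GE-SCJ cells, and 136 and 50 were in cluster 3. Ratios over the esophagus in whole groups therefore compare mostly different clusters. The Hox differences were also seen within clusters. In cluster 0 the log2 ratio of the GE-SCJ over the stomach was 1.03 for *Hoxa5* and 3.78 for *Hoxa7* at E15, and 0.66 and 3.67 at E19. In cluster 3 at E15, the GE-SCJ was above the esophagus by 1.59 and above the stomach by 0.79 for *Hoxa5*, and by 1.44 and 2.46 for *Hoxa7*. *Hoxc4* was above the stomach in cluster 0 at both stages (1.34 and 0.93) but not in cluster 3 (-0.04 and -0.03), and its log2 ratio to the nearer neighbour was under 1.5-fold among cells of low stress share at E15 (0.44).

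The promoters of these 3 Hox genes are shown because retinoic acid acts on Hox genes through receptors that bind the letters AGGTCA. Sequences are those of RefSeq on GRCm38.p6, run from 250 bases before to 50 bases after the transcription start, and have this motif on either strand (AGGTCA or TGACCT) in capitals. The promoter of *Hoxa7* lies at chr6:52218524-52218823 and that of *Hoxa5* at chr6:52204538-52204837, both on the minus strand, and that of *Hoxc4* at chr15:103034145-103034444 on the plus strand. By the gene coordinates given above, the windows of *Hoxa7* and *Hoxc4* lie inside the gene, so that starts further upstream were not covered.
Hoxa7: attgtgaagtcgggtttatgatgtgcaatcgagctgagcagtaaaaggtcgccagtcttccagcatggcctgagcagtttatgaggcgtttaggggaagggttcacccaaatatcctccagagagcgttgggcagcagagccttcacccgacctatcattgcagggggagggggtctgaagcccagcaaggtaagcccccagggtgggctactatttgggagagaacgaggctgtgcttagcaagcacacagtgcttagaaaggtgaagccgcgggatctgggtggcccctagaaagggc
Hoxa5: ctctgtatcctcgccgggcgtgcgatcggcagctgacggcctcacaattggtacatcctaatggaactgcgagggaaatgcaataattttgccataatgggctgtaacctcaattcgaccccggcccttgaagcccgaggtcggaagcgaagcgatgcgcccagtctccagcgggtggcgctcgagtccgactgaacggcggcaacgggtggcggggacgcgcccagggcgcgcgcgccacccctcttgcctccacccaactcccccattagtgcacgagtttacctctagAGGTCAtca
Hoxc4: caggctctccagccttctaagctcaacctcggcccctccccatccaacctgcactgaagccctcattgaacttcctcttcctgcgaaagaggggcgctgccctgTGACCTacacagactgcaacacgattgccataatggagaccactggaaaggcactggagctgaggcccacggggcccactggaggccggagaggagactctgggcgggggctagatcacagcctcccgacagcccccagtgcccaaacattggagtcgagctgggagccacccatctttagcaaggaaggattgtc
The *Hoxa5* window holds 1 motif that begins at base 41 after the start, the *Hoxc4* window 1 that begins 146 bases before it, and the *Hoxa7* window 0. Of 32851 promoters of the same length, 16.3% hold the letters on either strand. An entry was found for 9 of the 11 genes highest at both stages, and 3 of these hold the letters. The *Hoxa5* window has 29 CG pairs and those of *Hoxa7* and *Hoxc4* 9 each, against a median of 7 over all promoters.

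Transcription factors of the stomach mesenchyme were well above the esophagus at the GE-SCJ. *Barx1*, which is needed for stomach identity, was at 64.8 CPM in the esophagus, 362 CPM (343 to 382) at the GE-SCJ and 576 CPM in the stomach at E15 and 40.1, 330.1 and 393 CPM in the same order at E19. *Isl1*, a factor of the pyloric and gastric mesenchyme, was at 10.2, 106 and 203 CPM at E15 and 5.59, 104 and 144 CPM at E19, *Hand2* at 10.5, 51.5 and 109 CPM and 4.73, 45.3 and 60.5 CPM, and *Six2* at 8.40, 21.8 and 106 CPM and 10.9, 25.9 and 62.2 CPM. For each of the 4 genes the GE-SCJ lay between its neighbours at both stages. *Pitx1*, a homeobox factor of the posterior body, was highest at the GE-SCJ at E15 (40.2, 237 and 143 CPM, log2 ratios 2.55 and 0.73) and not at E19 (58.7, 263 and 293 CPM).

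Factors of the esophageal mesenchyme were low at the junction. *Nkx6-1* was at 115, 19.6 and 3.67 CPM in esophagus, GE-SCJ and stomach at E15 and 99.2, 10.1 and 3.18 CPM at E19, and the T-box factor *Tbx5* at 26.5, 3.45 and 0.524 CPM and 22.4, 1.75 and 0 CPM. Both had their lowest level in the stomach, so that the junction kept a trace of them. At E19 alone, 2 further factors were highest at the GE-SCJ. *Prrx1*, a mesenchymal homeobox factor on chromosome 1 from 163245119 to 163313710 on the minus strand, was at 22.2 CPM in the esophagus, 52.3 CPM (46.5 to 58.5) at the GE-SCJ and 18.6 CPM in the stomach, with log2 ratios of 1.23 (0.95 to 1.52) over the esophagus and 1.48 (1.18 to 1.80) over the stomach, and *Gata6*, a zinc finger factor of endoderm and mesenchyme, was at 23.9, 36.5 and 12.6 CPM (log2 ratios 0.61 and 1.53). At E15 *Prrx1* was at 59.6, 39.8 and 32.2 CPM and *Gata6* at 45.9, 19.9 and 18.9 CPM. The *Gata6* difference over the stomach was seen in cluster 3 (1.62) and not in cluster 0 (0.04). Over all 52 positional factors, 30 were tested at E15 with 5 highest and 33 at E19 with 5 highest, and 0 were lowest at either stage. The shares of all genes that were highest were 0.678% and 0.921%.

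Agonists of WNT signalling were raised at the junction. *Rspo3*, on chromosome 10 from 29452416 to 29535867 on the minus strand, was at 27.6 CPM in the esophagus, 78.0 CPM (69.3 to 87.4) at the GE-SCJ and 36.7 CPM in the stomach at E15 and at 2.87 CPM in the esophagus, 60.7 CPM (54.5 to 67.4) at the GE-SCJ and 33.0 CPM in the stomach at E19. It was highest at the GE-SCJ at both stages, with log2 ratios of 1.49 (1.17 to 1.83) over the esophagus and 1.08 (0.79 to 1.38) over the stomach at E15 and 4.34 (3.70 to 5.05) over the esophagus and 0.88 (0.63 to 1.13) over the stomach at E19. After thinning, 16.7% and 16.8% of GE-SCJ fibroblasts had a UMI of it and 0% of immune cells. *Rspo2*, on chromosome 15 from 43020794 to 43170826 on the minus strand, was highest at E19 (1.72, 12.6 and 6.35 CPM, log2 ratios 2.78 (1.91 to 3.75) over the esophagus and 0.97 (0.41 to 1.55) over the stomach), and at E15 it was at 4.46, 15.9 and 4.71 CPM with fewer than 100 UMIs in all. *Rspo1* was below the esophagus at E15 (9.45, 6.37 and 2.62 CPM) and at 6.02, 8.74 and 2.87 CPM at E19. All 3 agonists tested at E19 thus lay above both neighbours, of which 2 reached 1.5-fold, beside 32.6% and 0.921% of all genes. Within cluster 0, *Rspo3* stood above the stomach by 0.91 at E15 and 0.85 at E19, and within cluster 3 by 1.55 and 0.60.

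Among WNT ligands, *Wnt4* was highest at the GE-SCJ at E15 (19.9, 41.1 and 14.9 CPM in esophagus, GE-SCJ and stomach, log2 ratios 1.03 and 1.45). At E19 it was at 24.1, 78.5 and 81.4 CPM, above the esophagus only. The E15 difference lay in cluster 0 (1.35 over the stomach) and not in cluster 3 (0.09). *Wnt5a*, a ligand that acts largely without beta-catenin, was at 86.9, 141 and 124 CPM at E15 and 74.1, 144 and 137 CPM at E19, and *Wnt2*, a ligand of the esophageal and lung mesenchyme, at 19.2, 3.45 and 0.786 CPM and 22.8, 2.10 and 1.21 CPM. The secreted inhibitors *Sfrp1* (219.7, 324 and 718 CPM at E15) and *Dkk2* (20.5, 30.2 and 56.3 CPM) were below the stomach. At E19 *Dkk2* was at 5.01, 55.2 and 44.6 CPM and *Sfrp2*, a further inhibitor, at 26.6, 138 and 97.7 CPM, with the esophagus lowest for both. The receptors *Fzd7* (50.1, 30.5 and 47.7 CPM) and *Ror1* (40.7, 26.3 and 48.2 CPM) were lowest at the GE-SCJ at E15. *Axin2*, a feedback target of WNT signalling, was at 13.1, 8.75 and 11.3 CPM at E15 and 15.6, 8.57 and 8.77 CPM at E19, and *Nkd2*, another feedback gene, was lowest at the GE-SCJ at E19 (10.0, 3.85 and 8.92 CPM). Of 5 targets tested at E19, 0 were highest, 1 was lowest and 4 lay below both neighbours. Over all genes these shares were 0.921%, 0.47% and 21.5%, so that 0 highest of 5 says little about the targets.

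In the BMP and TGF-beta list 9 of 32 genes tested at E15 lay above both neighbours and 7 below both, and 13 and 4 of 34 at E19, beside 27.3% and 27.4% of all genes at E15 and 32.6% and 21.5% at E19. *Bmp4*, the main BMP ligand of gut mesenchyme, was at 168, 229.7 and 280.2 CPM in esophagus, GE-SCJ and stomach at E15 and 120.4, 259.8 and 388 CPM at E19. *Bmp5* was at 2.10, 17.2 and 18.6 CPM and 1.29, 40.6 and 39.6 CPM. The response genes *Id1* (44.4, 181 and 169 CPM at E15) and *Id3* (153, 529.8 and 410.2 CPM) stood well above the esophagus. *Id4* was highest at the GE-SCJ at both stages, at 12.9, 20.96 and 12.8 CPM and 15.5, 30.8 and 17.7 CPM, with log2 ratios of 0.69 and 0.70 and 0.99 and 0.79. The E15 call was lost among cells of low stress share (0.29 to the nearer neighbour), within cluster 3 (0.19) and among cells with a Y-linked UMI and no *Xist* UMI (0.33). *Bambi*, a pseudoreceptor that dampens the pathway, was highest at E19 (19.3, 66.4 and 43.1 CPM). At E15 *Fst*, which encodes the activin inhibitor follistatin (36.7, 23.9 and 58.4 CPM), the receptor *Bmpr1b* (35.4, 19.9 and 39.8 CPM) and the ligand *Gdf10* (16.0, 8.75 and 17.8 CPM) were lowest. Of 32 genes tested at E15, 1 was highest and 3 lowest, and of 34 at E19, 2 were highest and 0 lowest. Of all genes, 0.678% were highest and 0.907% lowest at E15, and 0.921% and 0.47% at E19.

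Of 13 hedgehog genes tested at each stage, 0 were highest or lowest at the GE-SCJ. Of all genes, 0.678% were highest and 0.907% lowest at E15, and 0.921% and 0.47% at E19, so that this says little about the list. At E15, 6 of the 13 lay below both neighbours, 5 of them receptors, beside 27.4% of all genes. *Ptch1*, receptor and target of the pathway, was at 379, 464 and 455 CPM at E15 and 279, 534 and 686 CPM at E19, *Gli1* at 60.1, 70.6 and 57.6 CPM and 31.5, 65.0 and 77.7 CPM, and the forkhead target *Foxf1* at 229.7, 248 and 255 CPM and 168, 234 and 299 CPM. In the FGF list 0 of 12 genes tested at E15 and 0 of 17 at E19 were highest or lowest, which says as little. *Fgf10*, a ligand for epithelial growth, was at 9.71, 17.5 and 66.5 CPM at E15 and 12.04, 17.5 and 25.9 CPM at E19, below the stomach. The Notch list also had 0, of 10 genes tested at each stage, too few for this count to say much. Its target *Heyl* was at 10.8, 50.4 and 37.2 CPM and 5.16, 33.0 and 22.2 CPM and its ligand *Dll1* at 1.05, 22.0 and 25.4 CPM and 1.86, 20.8 and 24.7 CPM, both far below the GE-SCJ in the esophagus.

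Insulin-like growth factor genes differed by member. *Igf2*, the fetal growth factor, was highest at the GE-SCJ at E19 (283, 656 and 427 CPM, log2 ratios 1.21 and 0.62), and at E15 it was at 526, 720 and 658 CPM. *Igf1* was highest in the esophagus, with 1703, 1065 and 947 CPM at E15 and 2015, 1256 and 1163 CPM at E19. Of the binding proteins, *Igfbp3* was lowest at the GE-SCJ at both stages (34.4, 18.8 and 67.6 CPM and 62.6, 26.4 and 46.9 CPM), though at E15 not among cells of low stress share (0.06), and *Igfbp2* was highest at E19 (19.3, 92.8 and 61.4 CPM). *Pdgfc*, a ligand of *Pdgfra*, was highest at E19 (5.44, 16.1 and 9.68 CPM). Among 15 imprinted growth genes, 11 lay above both neighbours and 1 below both at E19, beside 32.6% and 21.5% of all genes. At E15, 3 lay above both and 6 below both, beside 27.3% and 27.4%. By 1.5-fold *Igf2* was highest at E19 and *Peg10* lowest at E15 (123, 66.3 and 139 CPM).

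Some retinoic acid genes were graded along the 3 regions. *Aldh1a2*, the main enzyme of retinoic acid synthesis in mesenchyme, was at 139, 81.7 and 35.1 CPM in esophagus, GE-SCJ and stomach at E15 and 304, 96.7 and 78.2 CPM at E19. The retinoic acid binding protein *Crabp1* was in the opposite order, at 16.3, 68.7 and 172 CPM and 1.72, 10.7 and 18.8 CPM. In both genes the GE-SCJ was intermediate at both stages. *Rarb*, a retinoic acid receptor that is itself a target of the pathway, departed from this order. It was at 9.97, 44.6 and 32.7 CPM at E15 and was highest at the GE-SCJ at E19, at 3.87, 23.4 and 14.5 CPM with log2 ratios of 2.56 (1.96 to 3.20) over the esophagus and 0.69 (0.30 to 1.08) over the stomach.

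Among genes with a UMI in at least 10% of cells of the highest region, *Prdm6*, a repressor of smooth muscle genes, had the largest margin over both neighbours at E19, at 1.15 CPM in the esophagus, 14.2 CPM (11.2 to 17.6) at the GE-SCJ and 4.54 CPM in the stomach. Its log2 ratios were 3.47 (2.48 to 4.65) over the esophagus and 1.61 (1.00 to 2.26) over the stomach, and within clusters it stood above the stomach by 1.44 in cluster 0 and 1.90 in cluster 3. *Spon1*, which encodes the matrix protein F-spondin, was at 1.29, 53.5 and 24.2 CPM (log2 ratios 5.23 and 1.14), and the difference over the stomach was 0.38 in cluster 0 and 0.59 in cluster 3. *Cpe*, a carboxypeptidase that processes peptide hormones, was at 38.3, 102 and 45.4 CPM, *Gabra3*, a GABA receptor subunit, at 7.88, 17.7 and 7.41 CPM, and the long noncoding RNA *Gm26771* at 3.58, 19.9 and 9.38 CPM. *Cpa6*, a carboxypeptidase of the matrix, was highest at both stages, at 3.67, 19.1 and 10.5 CPM and 13.0, 28.5 and 9.68 CPM, but not within cluster 3 (log2 ratios to the nearer neighbour of -0.50 and -0.81). At E15 the synaptotagmin gene *Syt13* (6.82, 20.2 and 7.07 CPM) and *Abi3bp*, which encodes a matrix protein (70.6, 156 and 59.7 CPM), were also among the 10 with the largest margin. Within cluster 3 the margin fell under 1.5-fold for *Syt13* (0.18), *Abi3bp* (0.31), *Cpe* (0.48) and *Gm26771* (0.53).

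Genes lowest at the junction included several that the esophagus expressed. *Pi16*, a marker of adventitial fibroblasts, had 0 UMIs at the GE-SCJ at E15 against 25.2 CPM in the esophagus, which was at least 31.7-fold higher, and 1.05 CPM in the stomach. The stomach level of *Pi16* was near the 0.786 CPM that 3 UMIs make there, so that it hardly sets the junction apart from the stomach. At E19 *Pi16* was at 36.7, 7.17 and 2.27 CPM. The tight junction gene *Cldn11* was at 53.3, 4.24 and 9.69 CPM at E15, and the adhesion genes *Opcml* and *Flrt3* at 8.14, 1.59 and 23.8 CPM and 51.7, 13.8 and 37.2 CPM. *Tnxb*, which encodes the matrix protein tenascin X, was lowest at both stages (27.3, 4.51 and 10.2 CPM and 101, 43.4 and 68.4 CPM), as was *Ppargc1a*, a coactivator of mitochondrial genes (29.4, 6.37 and 12.05 CPM and 21.3, 6.12 and 9.98 CPM). At E19 the WNT and BMP antagonist *Sostdc1* (77.7, 2.10 and 8.62 CPM), *Lypd1* (25.5, 1.05 and 4.54 CPM) and *Vstm2a* (24.5, 0.35 and 1.66 CPM) were below both, with the larger margin to the esophagus. *Vstm2a* had 2 UMIs at the GE-SCJ and a log2 ratio over the stomach of -1.79 (-4.26 to 0.10). Within cluster 3 the log2 ratio to the nearer neighbour turned to 1.31 for *Cldn11* and 0.31 for *Ppargc1a* at E15, and to 0.56 for *Tnxb*, 0.76 for *Sostdc1* and 0.53 for *Lypd1* at E19.

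Guidance and neurotrophic genes were the list with most members below both neighbours at E15. Of 20 tested, 12 lay below both, 0 above both, and 5 were lowest by 1.5-fold, beside 27.4% below both, 27.3% above both and 0.907% lowest over all genes. The 5 were the semaphorin *Sema3d* (66.1, 14.3 and 22.5 CPM), *Slit3* (54.1, 24.7 and 40.9 CPM), *Gdnf*, the factor that draws enteric neural precursors into the gut (13.4, 8.49 and 33.5 CPM), the endothelin *Edn3*, which acts on the same precursors (37.5, 13.8 and 21.5 CPM), and the receptor *Nrp2* (94.0, 58.9 and 103 CPM). At E19, 7 of 20 lay below both and 0 were lowest, and *Slit2* was highest (23.2, 49.3 and 26.6 CPM).

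Several genes high at the junction belong to the early response to stress, which tissue dissociation also induces. The 9 genes of the dissociation stress list made up a median of 0.637% of the UMIs of a GE-SCJ fibroblast at E15 and 0.569% at E19, with esophageal medians of 0.320% and 0.190% and stomach medians of 0.422% and 0.344%. All 9 lay above both neighbours at both stages, and 4 at each stage were highest by 1.5-fold, beside 0.678% and 0.921% of all genes. *Junb* was at 473, 774 and 492 CPM at E15 and 391, 779.6 and 506 CPM at E19, *Btg2* at 264, 526 and 265 CPM and 149, 389 and 239 CPM, and *Nr4a1* at 144, 295 and 184 CPM and 52.2, 184 and 90.9 CPM. Among cells at or under the median stress share, the log2 ratio over the nearer neighbour at E15 was -0.20 for *Junb*, 0.13 for *Btg2*, -0.45 for *Nr4a1* and -0.55 for *Klf2*, so that these calls were lost. These cells were chosen by the UMIs of the stress list itself, so that smaller differences in its members were built in. For *Hoxa5* the log2 ratio among these cells was 0.76 at E15 and 0.48 at E19, the latter under 1.5-fold, and for *Rspo3* 1.05 and 1.29.

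Sex-linked transcripts also differed between the pools. A UMI of a Y-linked gene was seen in 61.7% of GE-SCJ fibroblasts at E15, against 73.2% in the esophagus and 73.1% in the stomach, and in 28.4% at E19, against 39.0% and 47.1%. *Xist*, the RNA of the inactive X chromosome, was highest at the GE-SCJ at E15, at 157, 489 and 143 CPM. Among cells with a Y-linked UMI and no *Xist* UMI, the log2 ratio over the nearer neighbour at E15 was 0.89 for *Hoxa5*, 3.95 for *Hoxa7* and 1.02 for *Rspo3*. At E19 it was 0.69 for *Hoxa5* and 0.57 for *Rspo3*, the latter under 1.5-fold. *Xist* itself cannot be compared in this setting, since cells with a UMI of it were left out. The part of stress and of sex in the differences between regions was not tested.

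**Figure D3:**
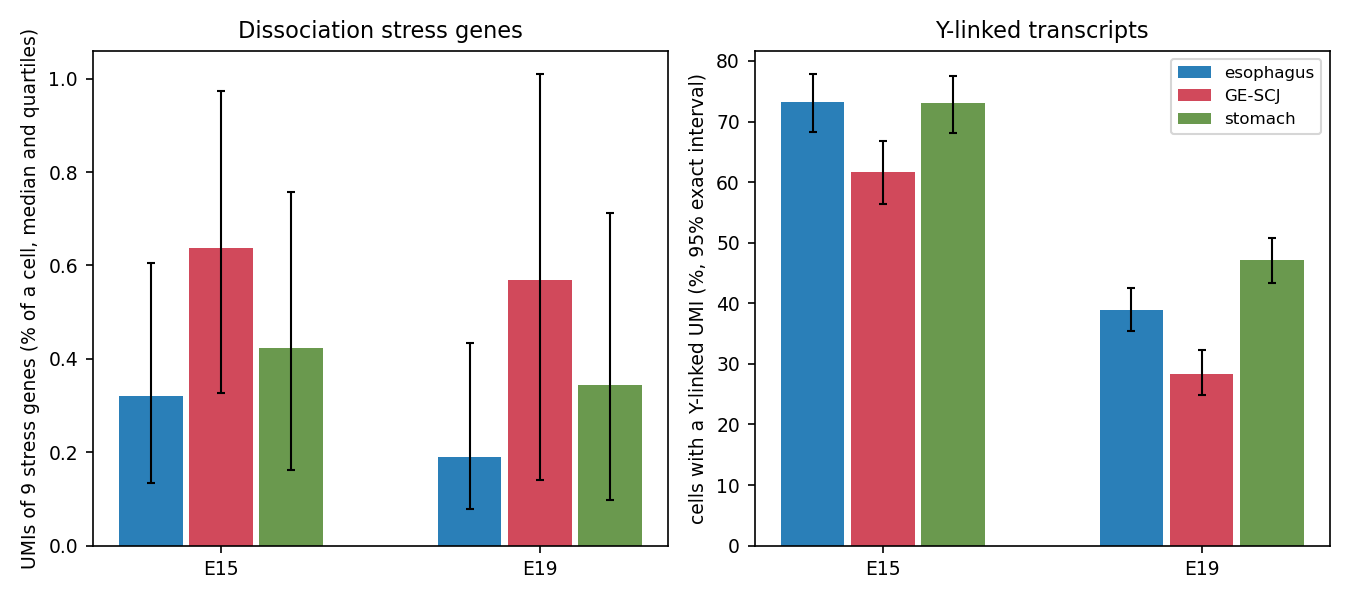
Left, UMIs of the 9 stress genes as a percent of a cell's UMIs (bars are medians over cells, lines quartiles), and right, percent of cells with a UMI of a Y-linked gene (lines are exact 95% intervals), in fibroblasts of the esophagus (blue), GE-SCJ (red) and stomach (green). The GE-SCJ has the highest stress median (0.637% and 0.569%) and the lowest Y-linked share (61.7% and 28.4%) at both stages.

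*Tff2* and *Gkn3*, secreted products of gastric mucous cells, were highest at the GE-SCJ at E15 as well, at 81.6, 443 and 67.0 CPM and 29.7, 124 and 30.4 CPM. The tenth of GE-SCJ cells with the most UMIs held 88.3% of the *Tff2* UMIs and 100% of the *Gkn3* UMIs at 3000 UMIs per cell. Without cells that had 3 or more UMIs of other cell types' markers, the log2 ratio of *Tff2* over the nearer neighbour was -0.13 and that of *Gkn3* 0.09, and without the 1% of cells richest in each gene they were -0.07 and 0.13. Prenatal immune cells carried 69.1 and 27.1 CPM, and prenatal columnar epithelial cells 1093 and 223 CPM.

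How GE-SCJ fibroblasts changed between E15 and E19 was asked next. Of 9094 genes with at least 100 UMIs over both stages, 146 (1.61%) rose at least 2-fold and 31 (0.341%) fell at least 2-fold, and the median log2 ratio over all genes was -0.05. Genes of the matrix and of mature fibroblasts were among those that rose, and *Crabp1* and the fetal chromatin gene *Hmga2* fell. Of the 146 rising genes, 111 moved the same way by any amount in the esophagus and 132 in the stomach, and of the 31 falling genes 28 and 26, beside 6101 and 6229 of all 9094 genes. At least 2-fold, 64 of the 146 rose in the esophagus and 89 in the stomach.

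Matrix genes were mostly higher at E19. Of 75 listed, 68 were tested, and 9 rose and 1 fell, beside 1.61% and 0.341% of all genes. By any amount 56 were higher at E19, and the median log2 ratio of the 68 was 0.52 beside -0.05 over all genes. *Postn*, which encodes the matricellular protein periostin on chromosome 3 from 54361109 to 54391037 on the plus strand, rose from 55.2 to 297 CPM, a log2 ratio of 2.42 (2.21 to 2.64). It rose in the stomach (2.90) and not in the esophagus (-0.38), and at E19 it was highest at the GE-SCJ (144, 297 and 189.7 CPM). *Tnc*, which encodes tenascin C, rose from 22.6 to 99.8 CPM, and *Col15a1*, a collagen of basement membrane zones, from 48.0 to 184 CPM. The fibrillar collagen *Col5a3* rose from 8.49 to 33.2 CPM, and all 7 fibrillar collagens tested were higher at E19, with a median of 0.64. The same held for all 16 elastic fibre genes, with a median of 0.52. Of these *Mfap5*, a microfibril protein, rose from 141 to 450.2 CPM (log2 ratio 1.67 (1.54 to 1.81)) and *Eln*, which encodes elastin, from 359 to 724 CPM (log2 ratio 1.01 (0.92 to 1.10)). The proteoglycans *Bgn* and *Aspn* rose from 319.9 to 658 CPM and 248 to 622 CPM. *Has2*, the synthase of hyaluronan, fell from 21.5 to 8.74 CPM, and at E19 it was lowest at the GE-SCJ (21.5, 8.74 and 17.4 CPM).

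Genes of mature fibroblasts were higher at E19 as well. Of 20 listed, 12 were tested and all 12 were higher, with a median log2 ratio of 0.63 beside -0.05 over all genes. At least 2-fold, 5 of the 12 rose, beside 1.61% of all genes. *Clec3b*, which encodes tetranectin, rose from 8.75 to 86.4 CPM, a log2 ratio of 3.26 (2.76 to 3.81), the largest rise among genes with a UMI in at least 10% of E19 cells. It rose in the esophagus (2.63) and stomach (3.19) too. *Cd34*, a surface protein of adventitial fibroblasts, rose from 47.0 to 116 CPM, *Gsn*, which encodes the actin-severing gelsolin, from 235 to 482 CPM, *Serping1*, the inhibitor of complement C1, from 101 to 216 CPM, and *Mgp*, the matrix Gla protein, from 549.9 to 1338 CPM. *Tnxb* rose from 4.51 to 43.4 CPM, the dipeptidase gene *Dpep1* from 2.92 to 28.7 CPM, the complement protease gene *C1s1* from 8.75 to 47.7 CPM, and *Fmo2*, a monooxygenase, from 16.2 to 71.3 CPM. Among cells with a Y-linked UMI and no *Xist* UMI the log2 ratio of *Fmo2* was 0.85, under 2-fold. *Pi16*, without a UMI at E15, was higher at E19 by at least 9.01-fold. In spite of the rise, the junction stayed below the esophagus in *Clec3b* (344, 86.4 and 31.0 CPM at E19), *Cd34* (564, 116 and 127 CPM) and *Gsn* (2069, 482 and 400.4 CPM).

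In the BMP and TGF-beta list 4 of 32 genes rose, all of them ligands, and 0 fell, beside 1.61% and 0.341% of all genes. *Bmp3* rose from 7.69 to 25.2 CPM, *Bmp5* from 17.2 to 40.6 CPM, *Gdf10* from 8.75 to 24.8 CPM and *Inhba*, the subunit of activin A, from 4.78 to 19.4 CPM. In the esophagus all 4 were lower at E19, with log2 ratios of -2.73, -0.72, -1.02 and -0.66. The stomach was unlike the esophagus in *Bmp5*, which was higher there at E19, as given above. All 12 ligands of the list summed to 557 and 683 CPM at the GE-SCJ at E15 and E19. The same sums were 603 and 807 CPM in the stomach and 448 and 423 CPM in the esophagus. *Fgf7*, a fibroblast ligand that acts on epithelium, rose from 6.37 to 17.0 CPM, and *Igfbp6* and *Igfbp7* rose from 10.1 to 26.9 CPM and 244 to 583 CPM. None of 22 WNT genes and 13 hedgehog genes passed 2-fold, with medians of 0.14 and 0.13, and at the shares over all genes a count of 0 says little about lists of this size.

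Of the retinoic acid list, *Aldh1a1*, a synthesis enzyme, rose from 11.9 to 31.1 CPM and *Crabp1* fell from 68.7 to 10.7 CPM, a log2 ratio of -2.67 (-3.09 to -2.27). *Crabp1* was also lower at E19 in the esophagus (-3.15) and stomach (-3.18). *Rarb* was at 44.6 and 23.4 CPM, a log2 ratio of -0.93 (-1.26 to -0.59). The Notch target *Hey1* fell from 17.8 to 8.57 CPM, as 1 of 10 Notch genes tested, beside 0.341% of all genes. By any amount 9 of the 10 were lower at E19, with a median of -0.36 beside -0.05 over all genes.

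Some fetal genes fell, and cell cycle genes were lower without passing 2-fold. *Hmga2*, a chromatin protein of embryonic tissue on chromosome 10 from 120361275 to 120476469 on the minus strand, fell from 137 to 30.8 CPM, a log2 ratio of -2.15 (-2.40 to -1.90), and the transcription factor *Sox11* fell from 157 to 78.5 CPM, a log2 ratio of -1.002 (-1.18 to -0.82). *Bcl11a* and the protocadherin *Pcdh10* fell from 32.9 to 13.3 CPM and 21.5 to 8.92 CPM, and the chemokine *Cxcl14* from 57.3 to 20.5 CPM, though within cluster 3 its log2 ratio was 1.82. Of 17 proliferation genes, 0 passed 2-fold but all 17 were lower at E19, with a median of -0.31 beside -0.05 over all genes. *Mki67* was at 186 and 145 CPM and *Top2a* at 363 and 306 CPM. By the deposited phase calls, 48.9% of GE-SCJ fibroblasts were in G1 at E15 and 60.0% at E19, with 61.7% and 78.1% for the esophagus and 51.1% and 61.2% for the stomach. The calls read the same transcripts and are no separate evidence. Of 12 Hox genes tested, 1 fell at least 2-fold (*Hoxa7*), beside 0.341% of all genes. The median of the 12 was -0.15, beside -0.05 over all genes.

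Genes of smooth muscle were higher at E19 in all 7 listed members, with a median log2 ratio of 0.88 beside -0.05 over all genes. *Cnn1*, *Tagln* and *Myh11*, which encode contractile and actin-binding proteins, rose from 19.4 to 55.2 CPM, 259.7 to 660.1 CPM and 67.1 to 167 CPM, and *Acta2* was at 713 and 1304 CPM. *Lmod1*, an actin nucleator of smooth muscle, rose from 6.37 to 29.4 CPM, but within cluster 3 its log2 ratio was 0.56, under 2-fold. The 7 genes summed to 1252 and 2504 CPM at the GE-SCJ, 1508 and 2489 CPM in the esophagus and 844 and 2625 CPM in the stomach. Whether smooth muscle cells or their RNA take part in this was not tested.

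Hemoglobin genes and sex-linked genes also appeared among the largest changes. *Hbb-bs* rose from 159 to 842 CPM and *Hba-a1* from 51.5 to 217 CPM, and in stomach fibroblasts they were lower at E19 (-0.76 and -0.69). Immune cells carried 5739 and 1865 CPM. Without the 1% of cells richest in each gene, the log2 ratio at the GE-SCJ was 0.11 and 0.05. The Y-linked *Eif2s3y* and *Uty* fell from 30.2 to 10.3 CPM and 19.9 to 8.04 CPM, while *Xist* was at 489 and 1184 CPM, beside the Y-linked shares of 61.7% and 28.4% of cells. The fall of *Tff2* and *Gkn3*, from 443 to 71.5 CPM and 124 to 30.8 CPM, came to log2 ratios of -0.11 and -0.08 without the 1% of cells richest in each.

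**Figure D4:**
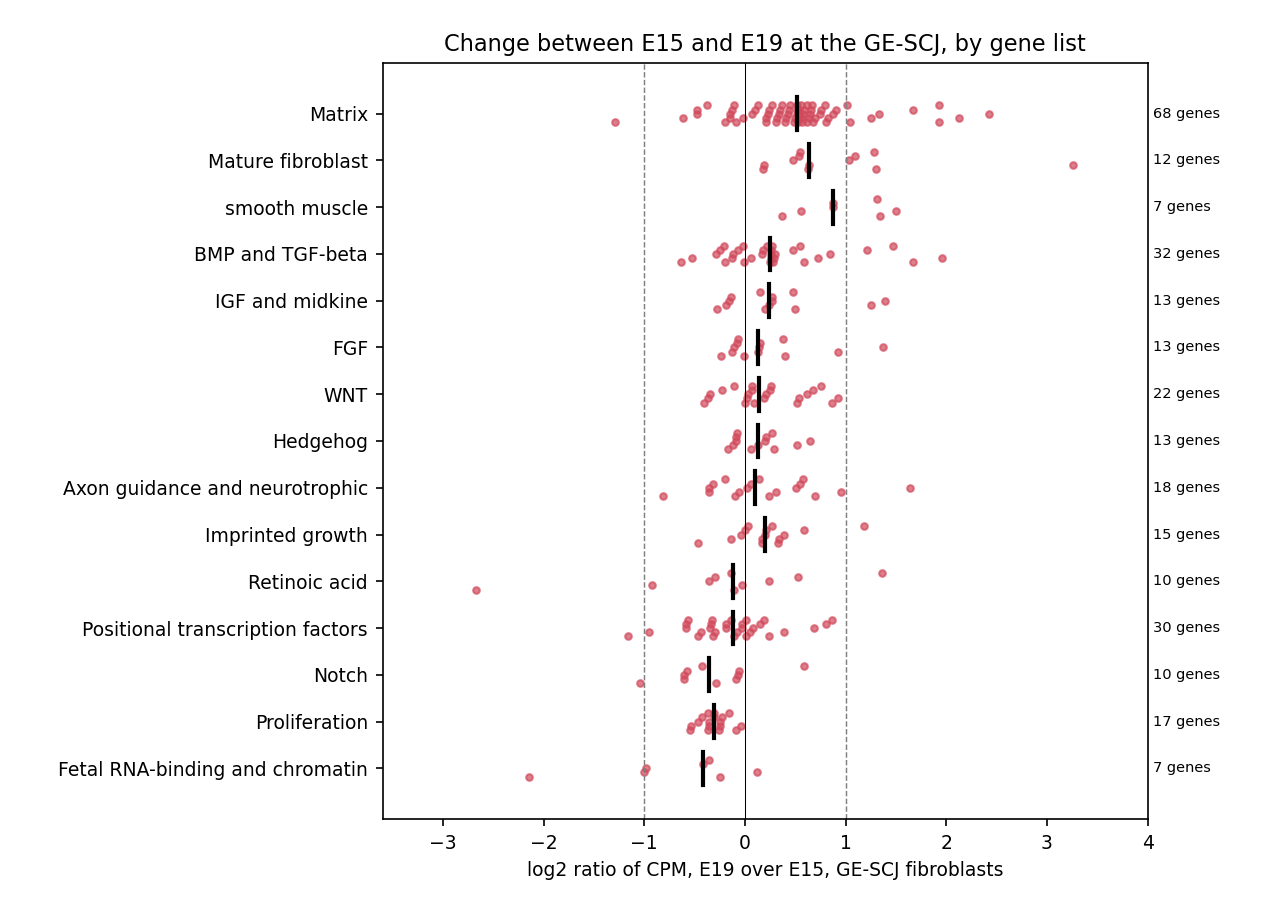
Log2 ratio of CPM, E19 over E15, in GE-SCJ fibroblasts (horizontal axis) for the tested genes of 15 lists (points), with the median of each list (black bar), dashed lines at 2-fold and the number of genes on the right. Matrix, mature fibroblast and smooth muscle genes lie mostly to the right of 0 (medians 0.52, 0.63 and 0.88), and Notch, proliferation and fetal genes to the left (medians -0.36, -0.31 and -0.42).

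Where the junction lies between its neighbours was asked on genes that differ between these neighbours. The minimum of UMIs was taken over all regions, so that UMIs of the junction took part in which genes were tested. The effect of this on the positions was not tested. For genes at least 2-fold different between the esophagus and the stomach, the position of the junction was set on a log2 scale. This scale runs from 0 (stomach level) to 1 (esophagus level). The median position was 0.251 at E15 (quartiles 0.0345 and 0.465, 520 genes) and 0.115 at E19 (quartiles -0.0371 and 0.262, 861 genes). GE-SCJ fibroblasts were thus nearer to the stomach in 405 genes (77.9%) at E15 and in 796 (92.5%) at E19. At E15 they lay between the neighbours in 395 genes, beyond the stomach in 115 and beyond the esophagus in 10, and at E19 in 597, 257 and 7. Within cluster 3 the E15 median was 0.411. Correspondingly, 447 genes differed 2-fold from the esophagus at E15 and 148 from the stomach, and at E19 845 and 93.

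Single cells were scored to see whether the junction holds esophagus-type and stomach-type cells side by side. For each cell, the UMIs of 50 genes high in the esophagus were taken as a percent of those UMIs and of the UMIs of 50 genes high in the stomach, with lists made from the other stage. At E15 the median was 84.8% in the esophagus, 14.9% at the GE-SCJ (quartiles 5.56% and 28.4%) and 6.67% in the stomach. At E19 it was 97.1%, 64.8% (quartiles 42.8% and 79.7%) and 50%. The levels of the 2 stages rest on different lists and cannot be set against each other, but at both the GE-SCJ distribution lay nearer to that of the stomach. At E15, 4 of 350 GE-SCJ cells had a share of 75% or more, against 240 of 347 esophageal cells, and 1 lay within 5 points of that limit. At E19 these were 207 of 588, beside 134 of 701 in the stomach, and 107 lay within 5 points, so that this limit does not set a group of cells apart. A cell had a median of 24.5 UMIs in both lists at E15 and 65.0 at E19. The level depends on the lists, since with lists of the same stage the GE-SCJ median was 52.2% at E15 and 18.8% at E19.

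**Figure D5:**
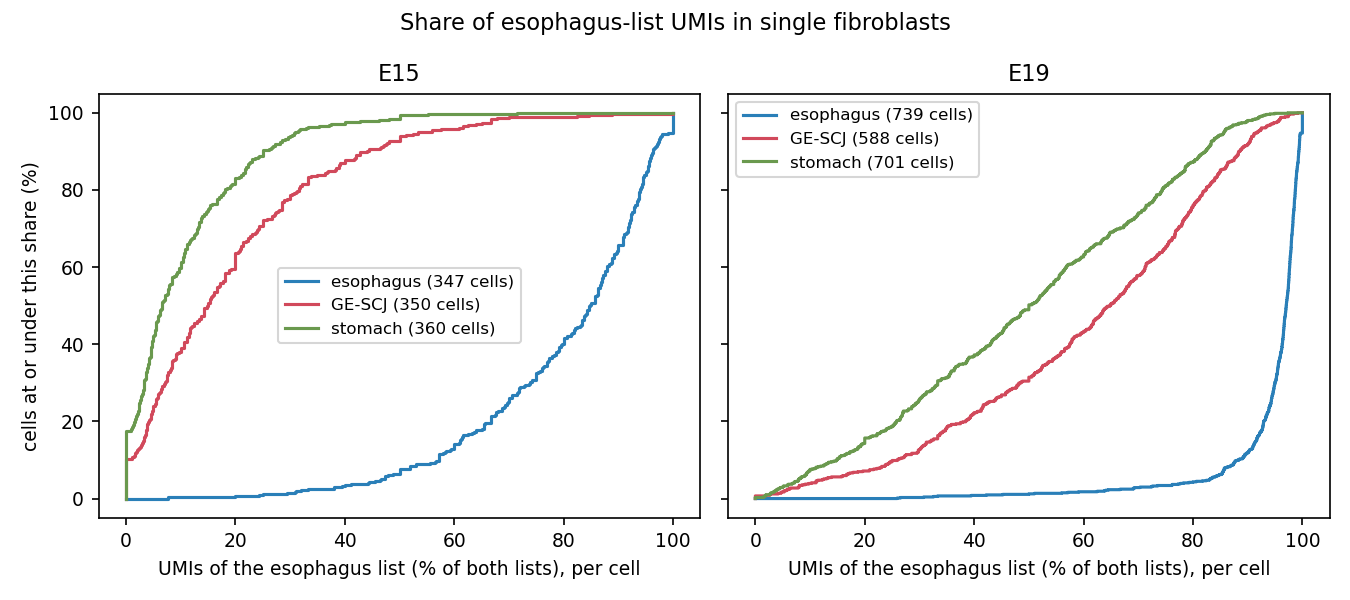
Percent of cells (vertical axis) at or under a given share of esophagus-list UMIs (horizontal axis, percent of the UMIs of both lists), in fibroblasts of the esophagus (blue), GE-SCJ (red) and stomach (green) at E15 (left) and E19 (right). The GE-SCJ line runs beside that of the stomach (medians 14.9% and 6.67% at E15, 64.8% and 50% at E19) and apart from that of the esophagus (84.8% and 97.1%).

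Neighbourhoods of cells gave the same order. Among the 15 nearest neighbours of a GE-SCJ fibroblast within its stage, in 30 principal components, 59.1% were GE-SCJ cells at E15, 33.6% stomach cells and 7.26% esophageal cells, whereas these regions make up 33.0%, 34.1% and 32.9% of the cells. At E19 the neighbours were 49.5% GE-SCJ, 47.4% stomach and 3.07% esophageal cells, for shares of 29.0%, 34.6% and 36.5% of the cells.

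GE-SCJ fibroblasts also varied among themselves. The median Fano factor, the variance of a gene's UMIs over its mean, was 1.09 at E15 over 2608 genes with a mean of at least 0.2 UMIs in 3000, and 1.10 at E19 over 2570 genes. Beside *Tff2* and *Gkn3*, the most variable genes at E15 were the nuclear RNA *Malat1* (32.4), *Gm42418* (13.5), *Col1a1* (8.42), the S phase histone *Hist1h2ap* (8.39), *Hmgb2* (6.81) and *Mgp* (6.65). At E19 *Hbb-bs* (184) and *Hba-a1* (42.2) led, and *Psca*, a surface protein of gastric epithelium, had a factor of 25.9 and the tenth of cells with the most held 68.6% of its UMIs. Between the 2 clusters inside the junction, cells of cluster 3 led with *Stmn2*, *Col8a1*, *Spon1*, *Crabp1*, *Gfra1* and *Kit* at E15, and cells of cluster 0 with *Cxcl14*, *Dach1*, *Adamdec1* and *Foxf2*. Clusters were made from these same counts, so their genes are a description. The defining fibroblast markers were near equal in the 2, with *Col3a1* at 4592 CPM in cluster 3 and 4779 CPM in cluster 0 at E15.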

How the data were processed

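UMI counts of single cells were deposited by the authors, who made them with Cell Ranger 6.1.1 on mm10, assigned cells to region and stage by tag, filtered cells, clustered them and gave the cell labels; the deposited percent of mitochondrial UMIs was used only as a filter in one alternative. The deposited matrix held 7808 cells and 19550 genes, and UMI totals equalled the deposited ones in 7808 cells. Cells labelled Stromal were summed by region and stage (3769477 to 6979256 UMIs a group) and scaled to CPM. With 1 pooled sample per group no test was made, and a gene with at least 100 UMIs over the groups compared was called past 2-fold between stages, or past 1.5-fold against both neighbours. Intervals are exact at 95% (Poisson for CPM, conditional binomial for ratios, Clopper-Pearson for shares) and cover counting error only. Cells were thinned to 3000 UMIs for shares of cells (seed 1), which left out 3 and 11 GE-SCJ cells. Nearest neighbours used 2000 variable genes and counts scaled to 10000 per cell. Scrublet marked 1 of 7808 cells (0.0128%), under the 0.5% at which its calls would have been used, so doublets were not removed beyond the authors' filter. Genes were named from the lists, from the 12 largest stage changes in each direction, from the 10 largest and 6 lowest margins at each stage (both with a UMI in at least 10% of cells of the higher group), from genes called at both stages, and from the 8 highest Fano factors. The members and the gene lists were chosen with earlier results of these data known. The steps were tested on simulated data. Calculations ran in Python 3.11.15 with scanpy 1.11.5, scipy 1.17.1, numpy 2.4.6, scikit-learn 1.9.0 and pandas 2.3.3, and plots were drawn with matplotlib 3.10.9.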

Additional observations from a re-analysis of the deposited data

Results flagged for a closer look

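For 2 genes the stage change at the GE-SCJ ran opposite to that in both neighbours. *Cpe* had a log2 ratio (E19 over E15) of 1.32 at the GE-SCJ, from 40.6 to 102 CPM, against -1.07 in the esophagus (80.6 to 38.3 CPM) and -0.29 in the stomach (55.3 to 45.4 CPM). *Ntrk2*, which encodes a neurotrophin receptor, had a log2 ratio of 1.16 at the GE-SCJ, from 9.02 to 20.6 CPM, against -0.72 in the esophagus (16.3 to 9.89 CPM) and -1.21 in the stomach (4.98 to 2.12 CPM). With 1 pooled sample per group, the difference between the regions was not tested for either gene.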

How the results depend on the processing

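No paired analysis was possible because each group is 1 pooled sample with no replicate number, and for the same reason no replicate could be left out. Doublets were not left out as an alternative. Of 840 values of named genes under other settings, 635 stayed within their counting interval, 169 moved further and 36 changed sign. Counts are given in the order stage rise (146), stage fall (31), E15 highest (65) and lowest (87), E19 highest (100) and lowest (51), and highest (11) and lowest (6) at both stages. They were 238, 61, 111, 184, 170, 94, 18 and 12 with a minimum of 50 UMIs, 66, 8, 26, 24, 42, 14, 7 and 1 with 300, and 1065, 1027, 937, 985, 1261, 631, 173 and 97 with no minimum. The region counts were 330, 398, 437, 239, 59 and 31 at a lower fold and 13, 15, 18, 9, 1 and 0 at 2-fold, and the stage counts 438 and 221 at 1.5-fold and 40 and 8 at 3-fold. With cells thinned to 3000 UMIs, 72 rose and 8 fell, 48 were lowest at E15 and 2 lowest at both stages. Without cells with a UMI of *Mki67* or *Top2a* 95 rose and 20 fell, and without cells with markers of other cell types 14 fell and 1 was lowest at both. The following settings were chosen after seeing the data. Within cluster 0 (251 and 380 at the GE-SCJ), where only stage changes were counted, 128 rose and 30 fell. Among cells with a Y-linked UMI and no *Xist* UMI (153 and 111 at the GE-SCJ), 63 rose, 10 fell, 3 were highest and 3 lowest at both. Among cells of low stress share (92 and 229), 3 were highest and 2 lowest at both, of which 1 and 1 were among the 11 and 6, and 7 of the 65 genes highest and 9 of the 87 lowest at E15 were called again. Within cluster 3 (94 and 204), 91 rose, 14 fell, 99 were lowest at E19 and 4 highest at both, with 3 of the 65 genes highest at E15 and 2 of the 11 called again.

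The median position was 0.301 (mean of cells' CPM), 0.297 (Y-linked cells) and 0.411 (cluster 3) at E15, and 0.0945 (without the 1% of cells richest in a gene) and 0.167 (low stress) at E19. The esophagus-list share was 0% and 33.3% at E15 and E19 with 20 genes a list, 25% and 58.0% with 100, and 52.2% and 18.8% with lists of the same stage.

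Sign changes, as log2 ratios to the nearer neighbour unless a stage change is named, were as follows. Without cells with other markers, *Tff2* was at -0.13 at E15 and *Krt15* at 0.35 at E19. Without cycling cells the stage change of *Hba-a1* was -0.15. Without the richest 1% *Tff2* was at -0.068 and *Pi16* at 0.018 at E15 and *Krt15* at 0.0042 at E19, and thinned *Pi16* was at 0.025. *Pi16* had no UMI at the GE-SCJ at E15, so that its values here come from the group sizes alone. Among Y-linked cells the stage changes were -0.015 for *Hbb-bs* and 0.0075 for *Gkn3*, and *Tff2* was at -0.30 and *Tnxb* at 0.15 at E15 and *C1ql3* at 1.06 at E19. Among cells of low stress share *Gkn3* was at -0.45, *Egr4* at -0.070, *Pak3* at 0.15, *Klf2* at -0.55, *Nr4a1* at -0.45, *Junb* at -0.20 and *Igfbp3* at 0.056 at E15, and *C1ql3* at 0.26, *Cxcl1* at -0.33 and *Junb* at -0.34 at E19. Within cluster 3 the stage change of *Cxcl14* was 1.82. There *Egr4* was at -0.21, *Flrt3* at 0.068, *Cldn11* at 1.31, *Cpa6* at -0.50, *Atf3* at -0.33, *Hoxc4* at -0.036 and *Ppargc1a* at 0.31 at E15, and *Cpa6* at -0.81, *Sostdc1* at 0.76, *Lypd1* at 0.53, *Krt15* at 0.18, *Hoxc4* at -0.026 and *Tnxb* at 0.56 at E19. The causes were not tested. Depth limits genes under 100 UMIs, among them *Hoxa7* at E19 and *Rspo2* at E15.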
